A study of Homo sapiens with 36 samples.

Results

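SCAF4 and SCAF8 are compared here by the RNA positions that crosslinked to each protein, taken from the 3 cluster lists of SCAF4 IP and the 3 of SCAF8 IP. These 6 lists were chosen by the labels and held 192335 of the 278185 clusters in all 18 lists, with 107357 in SCAF4 IP and 84978 in SCAF8 IP. Both proteins were expressed in Flp-In T-REx HEK293 cells, a human embryonic kidney line with a site for integration of a transgene. One line carried SCAF4 with a FLAG tag and the other SCAF8 with a FLAG tag, in the methods' plasmid names with an added HA tag, and the endogenous genes were unedited (WT) in both. Doxycycline was given overnight to both lines, at 100 ng/mL by the labels and at a higher dose by the methods. Cells received 4-thiouridine (4SU) at 100 µM overnight and at 500 µM for 2 h, and were irradiated at 365 nm with 2000 J/m2. Inputs of the same 2 lines (21622 and 28515 clusters) and FLAG IP of the parental line without a tagged protein (13573 clusters, control IP) served as background. Inputs of the parental line, with lists of 12493, 4567 and 5080 clusters, were part of the background as well. The methods speak of single clones, so in these lists the protein and the clone that expressed it cannot be told apart. The labels do not say whether replicates were separate cultures, so p-values measure only the spread between lists.

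SCAF4 and SCAF8 are paralogous nuclear proteins with a domain that binds the C-terminal domain (CTD) of the largest subunit of RNA polymerase II and with an RNA recognition motif. Proteins that hold both can touch the polymerase and the RNA that leaves it, and related CTD-binding proteins act in transcript cleavage and termination. In PAR-CLIP, 4SU in nascent and mature RNA crosslinks to a bound protein under long-wave UV light and is read as T→C in the cDNA. A cluster is a stretch of RNA where reads with such changes pile up.

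In replicate order, the SCAF4 lists were 18991, 54404 and 33962 clusters long and the SCAF8 lists 25189, 18287 and 41502. The lists hold no read counts, so depth is unknown, and the longest list was 2.98 times as long as the shortest. Values are therefore given as shares of a list or per 10000 clusters of the list. The share of clusters that overlapped more than 1 of the 9 input lists, parental inputs included, or any control IP list was taken as background. This share was 51.3%, 26.1% and 35.1% in SCAF4 IP and 46.0%, 52.7% and 33.3% in SCAF8 IP. It was lowest in the longest list of each protein. Replicate 1 was sequenced apart from replicates 2 and 3 with longer reads, so differences are also given for replicate 1 alone and for replicates 2 and 3.

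The transgenes were visible in the lists. SCAF4 held 16, 17 and 19 coding exon clusters in SCAF4 IP and 15, 16 and 17 in the inputs of the same line, against 3, 3 and 6 in SCAF8 IP and 1, 2 and 3 in its inputs. SCAF8 held 16, 16 and 16 coding exon clusters in SCAF8 IP and 11, 16 and 16 in its inputs, against 5, 13 and 10 in SCAF4 IP and 0, 0 and 1 in the inputs of that line. The labels of all 6 lists thus fit the RNA expressed in each line. Over the whole gene, the difference was 1.43 ± 0.34 (log2, SE) for SCAF4 (adjusted p = 0.0895 by limma, Benjamini-Hochberg) and −0.95 ± 0.30 for SCAF8 (adjusted p = 0.178 by limma, Benjamini-Hochberg). Relative to the inputs these values turned to −1.26 and 1.18.

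The overlap between lists of different proteins was close to that among SCAF8 lists and below that among SCAF4 lists. Of the clusters of one list, a mean of 60.0% overlapped a cluster of another SCAF4 list for the 3 pairs of SCAF4 lists, and 53.8% overlapped one for the 3 pairs of SCAF8 lists. Between the proteins, the mean over 9 pairs was 53.0%, with a range of 27.3 to 82.5%. When only the 18287 highest-scored clusters of each list were kept, the means were 36.2% within SCAF4, 35.0% within SCAF8 and 34.7% between the proteins. Without clusters that overlapped the inputs or control IP, the mean was 47.5% within SCAF4, 35.2% within SCAF8 and 35.9% between them. The midpoints of overlapping clusters lay a median of 15.8 nt apart within SCAF4, 16.8 nt within SCAF8 and 16.8 nt between the proteins.

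Overlapping clusters of the 6 lists were merged into 77186 regions, of which 6131 held clusters of all 6 lists. Clusters of all 3 SCAF4 lists and of no SCAF8 list were found in 983 regions (1.27% of all regions), and 327 regions (0.424%) held all 3 SCAF8 lists and no SCAF4 list. These numbers moved with the lists that were compared. With a list left out, a region needed all remaining lists of 1 protein and none of the other. This rule was looser with 2 lists of a protein than with 3, so these counts are not of the same measure. Without replicate 2, with 2 lists of each protein, they were 1365 and 3143, so the order of the counts turned. Without the second SCAF8 list they were 1139 and 1635, with 3 SCAF4 lists set against 2 SCAF8 lists. Without the second SCAF4 list they were 1195 and 813, without the third 1849 and 430, and without the first 5800 and 401. Without replicate 1 they were 7031 and 1265, without replicate 3 3670 and 641, without the first SCAF8 list 1521 and 1148, and without the third 2291 and 501. They were 439 and 352 with equal list sizes. The kind of region differed more steadily than the number. Coding exons made up 55.2% of the 983 SCAF4 regions and 11.9% of the 327 SCAF8 regions, against 51.8% of the 6131 shared ones. The 3′ UTR share was 4.37% in the SCAF4 regions and 21.1% in the SCAF8 regions, and the intergenic share was 3.05% and 15.6%. With any replicate or list left out, the coding exon share stayed between 49.5 and 57.0% in the SCAF4 regions and between 13.5 and 21.4% in the SCAF8 regions. With equal list sizes it was 56.7% and 25.3%. More than 1 input list or any control IP list overlapped 15.4% of the SCAF4 regions, 44.6% of the SCAF8 regions and 84.0% of the shared regions. The part of this background in the difference between the classes of region was not tested beyond the removal of such clusters, which left 847 and 193 regions with coding exon shares of 57.1% and 15.5%.

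Sequences of 100 nt around the midpoint of the highest-ranked cluster are shown for 4 of the 12 regions named by rank of the score among regions of one protein that were absent from all inputs and control IP lists. They show for each side a window rich in its 4-mers and one in which these were scarce. The 4-mers were A-rich on the SCAF4 side and rich in G and U on the SCAF8 side. The rich windows held the most 4-mers of their side among the named regions. All other named SCAF8 regions held more SCAF4-side than SCAF8-side 4-mers, and the other named SCAF4 regions were mixed. Capitals mark, in SCAF4 regions, CAAC (log2 difference 0.21), ACCA (0.17), AGAA (0.20), ACAA (0.19) and AACA (0.17), and in SCAF8 regions GUAG (−0.22), GUGU (−0.31), GGUU (−0.24), UUAG (−0.28) and UAGU (−0.30), the 4-mers with the lowest p per direction over all clusters. They were searched on the transcribed strand, overlaps included. The sequences are of GRCh38, written 5′ to 3′ as RNA.
AKAP12, coding exon, plus strand, chr6:151350834-151350933: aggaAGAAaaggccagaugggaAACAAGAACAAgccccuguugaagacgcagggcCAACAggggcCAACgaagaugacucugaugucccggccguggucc
UBR4, coding exon, minus strand, chr1:19121331-19121430: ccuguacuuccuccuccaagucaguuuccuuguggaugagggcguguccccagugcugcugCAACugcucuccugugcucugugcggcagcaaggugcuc
Intergenic, minus strand, chr10:79690169-79690268: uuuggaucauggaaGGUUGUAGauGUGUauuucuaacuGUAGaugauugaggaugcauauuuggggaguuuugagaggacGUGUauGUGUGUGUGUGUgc
CPNE1, coding exon, minus strand, chr20:35632517-35632616: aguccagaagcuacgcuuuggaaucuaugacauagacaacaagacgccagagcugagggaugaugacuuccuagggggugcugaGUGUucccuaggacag
The window in AKAP12, which encodes a scaffold of protein kinase A, held 9 of the SCAF4-side 4-mers and none of the others. That in UBR4, a giant ubiquitin ligase, held 1 of each side. The intergenic window on chromosome 10 held 10 SCAF8-side 4-mers, 5 of them in a run of GU repeats, and none of the SCAF4 side. The window in CPNE1, a calcium-dependent phospholipid-binding protein, held 1 SCAF8-side 4-mer and 5 of the SCAF4 side. The 983 SCAF4 regions held a mean of 2.90 SCAF4-side and 1.17 SCAF8-side 4-mers per 100 nt, the 327 SCAF8 regions 1.63 and 2.53, and the 6131 shared regions 2.38 and 1.59. At least 1 SCAF4-side 4-mer lay in 88.4% of the SCAF4 windows, 69.1% of the SCAF8 windows and 79.8% of the windows of all 77186 regions. At least 1 SCAF8-side 4-mer lay in 65.7%, 85.6% and 73.6% of them. These 4-mers were chosen on the same lists, so the counts are a description.

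Over all clusters, A-rich 4-mers without U made up a larger share of the sequence in SCAF4 IP, and 4-mers with G and U a larger share in SCAF8 IP. Of all possible 4-mers in 100 nt around each midpoint, 24 (9.38%) were higher in SCAF4 IP and 15 (5.86%) in SCAF8 IP (limma, adjusted p under 0.05 with Benjamini-Hochberg over all 4-mers). In 66 4-mers (25.8%) the 3 SCAF4 lists lay above the 3 of SCAF8, and in 52 (20.3%) below. Of the 24, 22 held 2 or more A and 1 held U. All 15 on the other side held U, 14 held G and U, and 7 held UAG. The differences were small, 0.12 to 0.25 (log2) on the SCAF4 side and 0.13 to 0.39 on the SCAF8 side. CAAC made up 0.283%, 0.274% and 0.273% of all 4-mers in SCAF4 IP and 0.241%, 0.245% and 0.232% in SCAF8 IP (log2 difference 0.21 ± 0.03, SE, adjusted p = 0.0245 by limma). AGAA made up 1.03%, 1.01% and 1.06% in SCAF4 IP and 0.884%, 0.922% and 0.888% in SCAF8 IP. The lists of the 2 proteins did not overlap for either 4-mer. GUGU made up 0.572%, 0.532% and 0.540% in SCAF4 IP and 0.705%, 0.649% and 0.684% in SCAF8 IP (log2 difference −0.31 ± 0.05, SE, adjusted p = 0.0245 by limma). GUAG made up 0.287%, 0.296% and 0.289% in SCAF4 IP and 0.339%, 0.334% and 0.342% in SCAF8 IP. All 6 input lists held more GUAG than any SCAF4 or SCAF8 IP list, with 0.415 to 0.447% in the SCAF4 line and 0.411 to 0.481% in the SCAF8 line.

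All 24 and all 15 4-mers kept their direction within introns alone and within coding exons alone, and 19 and 12 had the same direction between the inputs of the 2 lines. In introns 18 and 2 were called, and in coding exons none (0 and 0 by limma, with 23 and 44 at an unadjusted p under 0.05). The U content of the windows was 24.6%, 24.4% and 23.8% in SCAF4 IP and 27.1%, 25.1% and 25.4% in SCAF8 IP, a difference of −1.58 percentage points without overlap (p = 0.1 by a two-sided exact permutation test, below which 3 lists against 3 cannot go). It differed by −1.24 points between the inputs, whose lists overlapped. The number of calls depended on single lists. Without replicate 2, without replicate 3, or without any 1 of the 3 SCAF4 lists or without the third SCAF8 list, limma called 0 4-mers in either direction (12 to 42 and 11 to 40 at an unadjusted p under 0.05). It called 52 and 46 with the sequencing batch as a term, 28 and 28 without replicate 1, 38 and 37 without the first SCAF8 list, and 34 and 29 without the second.

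A larger share of the SCAF4 clusters lay in coding exons and a larger share of the SCAF8 clusters lay outside genes. Each cluster was assigned by its midpoint to 1 of 10 classes of GENCODE 44 on its own strand. Coding exons held 49.0%, 42.8% and 47.0% of the clusters of SCAF4 IP (mean 46.3% ± 3.14, SD, n = 3) and 37.0%, 41.6% and 35.1% in SCAF8 IP (37.9% ± 3.34). All 3 SCAF4 lists were above all 3 SCAF8 lists in this class, which was 1 of 10 classes (10%) with SCAF4 higher. The difference was 8.33 percentage points (p = 0.1 by the two-sided exact permutation test, adjusted p = 0.5 over 10 classes). It was 11.9 points in replicate 1 and 6.52 points in replicates 2 and 3. In the inputs the shares were 30.9% ± 0.429 in the SCAF4 line and 28.5% ± 5.60 in the SCAF8 line, and in control IP 39.6% ± 2.47. The intergenic class held 3.58%, 4.57% and 4.47% of the clusters in SCAF4 IP and 5.94%, 6.59% and 7.52% in SCAF8 IP. It was likewise 1 of 10 classes (10%) with SCAF8 higher, with a difference of −2.48 points (exact permutation test, p = 0.1; adjusted p = 0.5). The inputs of the lines also did not overlap in this class, with 5.57 to 7.74% in the SCAF4 line and 7.94 to 8.40% in the SCAF8 line. Control IP, with no tagged protein, held 5.67 to 7.82%, so the SCAF8 IP lists lay within its range.

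In the other 8 classes the lists of both proteins overlapped. The 3′ UTR held 10.6% ± 2.02 of the SCAF4 clusters and 16.6%, 12.2% and 13.3% of those of SCAF8 IP, a difference of −3.41 points beside one of −3.38 points between the inputs. Introns held 25.1% ± 4.22 and 26.1% ± 2.32. The sign of the intron difference was not the same in both sequencing batches, with −6.39 points in replicate 1 and 1.57 points in replicates 2 and 3. Clusters antisense to protein-coding genes made up 1.18% ± 0.557 of the SCAF4 and 2.06% ± 0.846 of the SCAF8 lists. Both proteins had fewer 3′ UTR clusters and more coding exon clusters than their inputs. The coding exon share was 15.4 points above the input mean in SCAF4 IP and 9.43 points above it in SCAF8 IP. Control IP, with no tagged protein, held 39.6% beside 21.7% in its own inputs, and its 3′ UTR share was 14.2% ± 5.55 beside 15.9%.

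**Figure D1:**
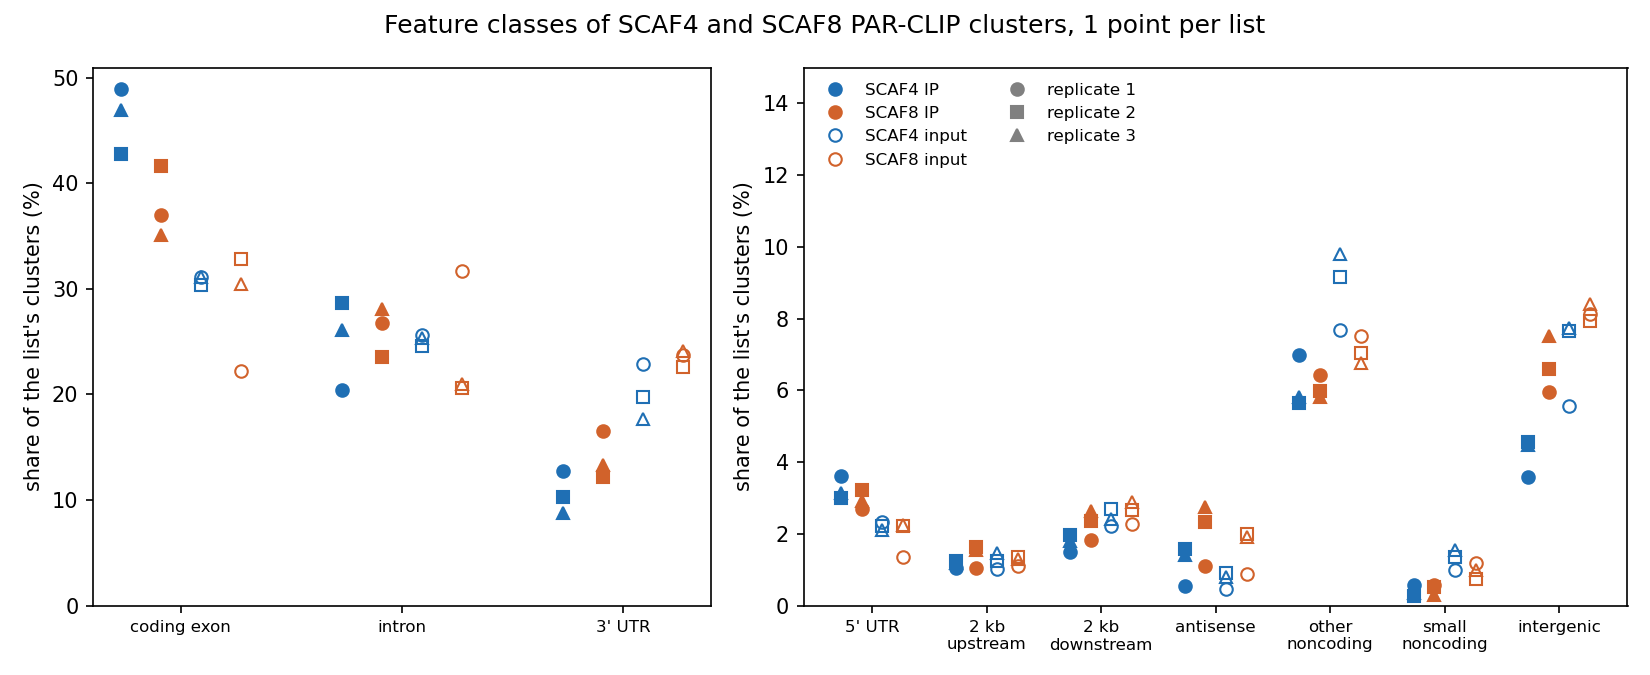
Share of the clusters of each list (%, vertical axes) in 10 feature classes (horizontal axes) for SCAF4 IP, SCAF8 IP and the inputs of both lines, with 1 point per list and the replicate given by the marker. The SCAF4 IP points sit at 42.8 to 49.0% in coding exons, above the SCAF8 IP points at 35.1 to 41.6%, and at 3.58 to 4.57% in intergenic sequence, below the SCAF8 IP points at 5.94 to 7.52%.

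Clusters that ran across an annotated exon-intron border made up a larger share of the 3 SCAF4 lists than of the 3 SCAF8 lists. Clusters with at least 5 nt on each side of an annotated 5′ splice site made up 12.1%, 16.1% and 16.2% in SCAF4 IP and 10.8%, 12.1% and 11.2% in SCAF8 IP. The means were 14.8% ± 2.37 and 11.4% ± 0.642 (SD, n = 3 each), with inputs at 4.97% ± 0.419 and 4.57% ± 0.339. The lists did not overlap, but the first SCAF4 list lay close to the highest SCAF8 list. Clusters across a 3′ splice site made up 11.3%, 14.1% and 14.9% in SCAF4 IP and 10.6%, 10.3% and 9.52% in SCAF8 IP, with inputs at 4.40% ± 0.355 and 4.24% ± 0.902. Control IP lists ranged from 4.54 to 11.7% at the 3′ splice site and from 2.68 to 7.76% at the 5′ splice site. The differences between the proteins were 3.46 and 3.27 points (two-sided exact permutation test, p = 0.1; adjusted p = 0.325 over 13 measures). Among the 13 measures of position, 2 (15.4%) had all SCAF4 lists above all SCAF8 lists and 2 (15.4%) the reverse. At 5′ splice sites the difference was 1.30 points in replicate 1 and 4.55 points in replicates 2 and 3, and at 3′ splice sites it was 0.617 and 4.60 points. With equal list sizes the differences were 4.70 and 4.91 points.

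The shape of the coverage around splice sites differed by less than the spread between lists. Coverage in the 200 nt on the exon side exceeded that in the 200 nt on the intron side by 2.11 ± 0.28 (log2, SD) in SCAF4 IP and 2.10 ± 0.10 in SCAF8 IP at 5′ splice sites. At 3′ splice sites the ratios were 2.07 ± 0.36 and 2.06 ± 0.09. The background means were not lower. Inputs of the SCAF4 and SCAF8 lines had 2.22 ± 0.08 and 2.31 ± 0.25 at 5′ splice sites. At 3′ splice sites the inputs had 2.53 ± 0.18 and 2.57 ± 0.28. Control IP had 2.52 ± 0.21 at 5′ and 2.09 ± 0.54 at 3′ splice sites. At the 183813 annotated 5′ splice sites, 1782 to 2228 clusters per 10000 of a SCAF4 list covered the border, against 1482 to 1756 of a SCAF8 list and 752 to 862 of their inputs. The first SCAF4 list differed from the other two in the intron. At 70 nt into the intron it had 310 clusters per 10000, below the 324 to 364 of SCAF8 IP, while SCAF4 lists 2 and 3 had 501 and 460. In the exon 70 nt before the border, all 3 SCAF4 lists (3615 to 3892) were above the SCAF8 lists (2891 to 3330).

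**Figure D2:**
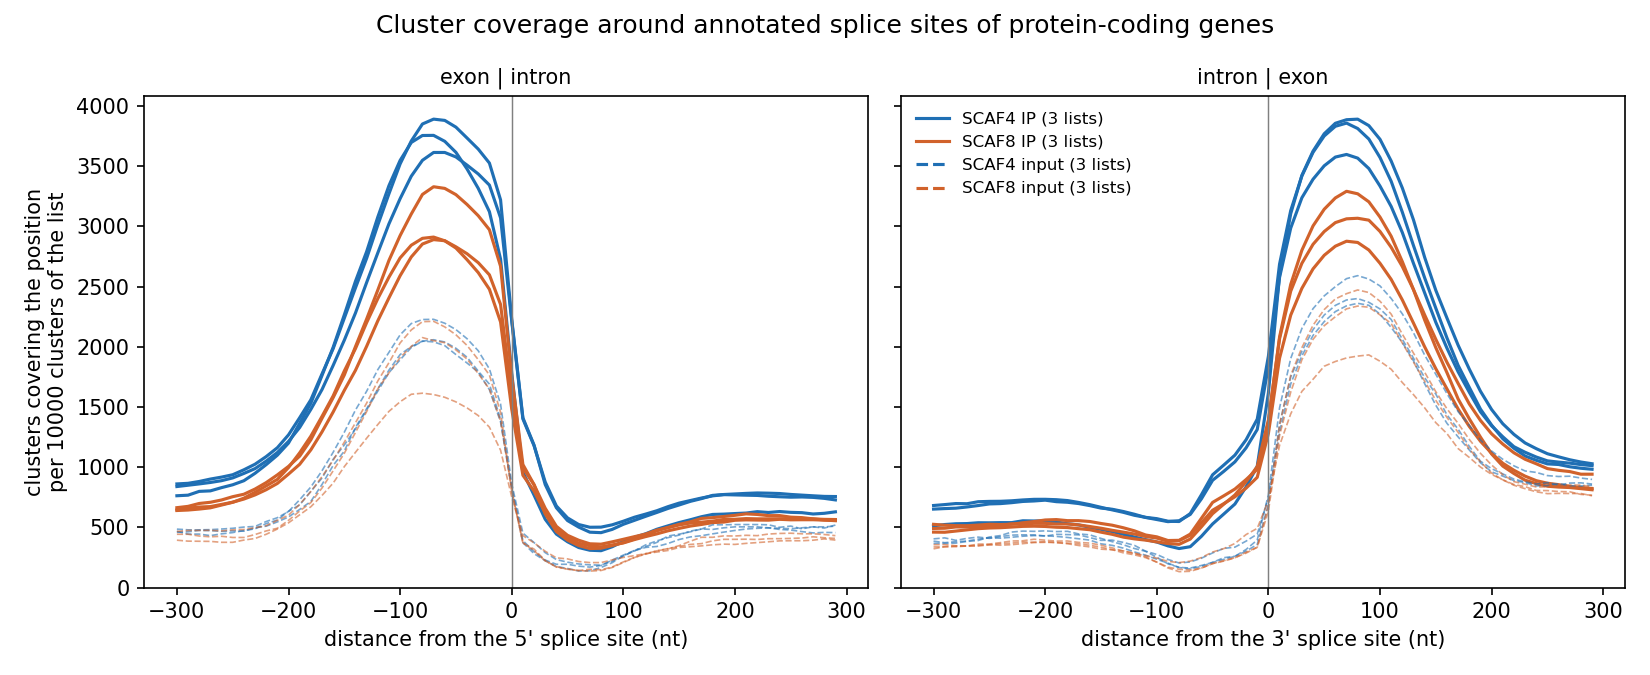
Number of clusters covering each position per 10000 clusters of the list (vertical axis) against the distance from annotated 5′ splice sites (left) and 3′ splice sites (right) in nt (horizontal axes), with 1 line per list. All lists peak inside the exon about 70 to 80 nt from the border, where the SCAF4 IP lines lie above the SCAF8 IP lines and both lie above the inputs.

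Along genes, SCAF4 clusters lay nearer to the start. The median position was 56.6%, 53.9% and 53.7% of the gene length from the start in SCAF4 IP and 60.7%, 57.4% and 57.5% in SCAF8 IP. The lists did not overlap (difference −3.80 points, two-sided exact permutation test, p = 0.1; adjusted p = 0.325), with −4.10 points in replicate 1 and −3.64 points in replicates 2 and 3. The inputs differed in the same direction and also did not overlap, at 61.1 to 63.5% in the SCAF4 line and 65.5 to 69.6% in the SCAF8 line. The part of the RNA present in each line was not tested. The last 2 kb of genes held 15.3% ± 2.02 of SCAF4 and 17.5% ± 1.15 of SCAF8 clusters, and the inputs held 26.6% and 26.5%. The first 2 kb held 14.4% ± 0.191 and 13.5% ± 1.58. The SCAF8 lists spread more here, with 11.7% in replicate 1 and 14.6% and 14.3% in replicates 2 and 3. First introns held 31.1% ± 0.431 and 30.2% ± 1.79 of intronic clusters, and the region from 2 to 10 kb beyond gene ends held 1.80% ± 0.550 and 2.68% ± 0.773 of all clusters.

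Per gene, 14 of the 4099 genes with at least 12 clusters in the 6 lists passed the test. The measure was log2 of the number of clusters of a gene (plus 0.5) over the clusters of its list. More binding and more RNA of a gene cannot be told apart in it. limma called 7 genes higher in SCAF4 IP (0.171%) and 7 higher in SCAF8 IP (0.171%) at an adjusted p under 0.05. The numbers depended on how list length and sequencing batch entered the fit. They were 0 and 1 with equal list sizes and 2 and 1 with log2 list size as a covariate, but 127 and 103 with the sequencing batch as a term, which kept all 7 and 7. At an unadjusted p under 0.05, without these changes, 329 (8.03%) and 239 (5.83%) genes passed, and 449 (11%) and 315 (7.68%) had lists that did not overlap. The median difference of all genes was 0.07 (log2). Without replicate 2 limma called 0 genes in either direction (163 and 136 at an unadjusted p under 0.05), without replicate 3 0 (144 and 122), and without the third SCAF4 list 0 (180 and 177). It called 1 and 2 genes without the second SCAF4 list, 5 and 1 without the second SCAF8 list, 4 and 1 without the third, 57 and 21 without the first, and 103 and 75 without replicate 1.

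PCNT, which encodes pericentrin, a scaffold of the centrosome, had the lowest p on the SCAF4 side. It held 15, 47 and 32 clusters in SCAF4 IP and 4, 3 and 8 in SCAF8 IP, or 8.65 ± 0.762 and 1.72 ± 0.183 per 10000 clusters (SD, n = 3). The difference was 2.2 ± 0.29 (log2, SE, adjusted p = 0.00472 by limma), and the inputs of both lines together held 2 clusters. Control IP held 17 clusters of PCNT in replicate 1, 0 in replicate 2 and 1 in replicate 3. Of its 109 IP clusters, 77 lay in coding exons and 32 in introns (chr21:46324156-46445769, plus strand). CEP290, which encodes another centrosomal protein, held 4, 12 and 8 clusters in SCAF4 IP and 0, 0 and 1 in SCAF8 IP (adjusted p = 0.0227 by limma), with 22 of 25 clusters in coding exons.

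PKD1, which encodes polycystin-1 of the primary cilium, held 5.76 ± 0.147 clusters per 10000 in SCAF4 IP and 1.13 ± 0.448 in SCAF8 IP (difference 2.22 ± 0.34, log2, SE, adjusted p = 0.0157 by limma). Its numbers were 11, 32 and 19 against 2, 3 and 4, and no input held any. PKD1P2, a pseudogene copied from PKD1, was called too (8, 22 and 20 clusters against 3, 2 and 3, adjusted p = 0.0227 by limma). Reads could be split between these near-identical copies, so the number of each is uncertain. PLXNA1, a semaphorin receptor, held 4, 11 and 11 clusters against 0, 0 and 1 (adjusted p = 0.022 by limma), and no input held any. CHD8, a chromatin remodeller, held 5, 25 and 17 against 2, 1 and 4 (difference 2.10 ± 0.36, log2, SE, adjusted p = 0.0227 by limma), with 49 of 54 clusters in coding exons. FAT1, a giant cadherin, had 2, 19 and 11 clusters against 1, 0 and 1 (adjusted p = 0.0555 by limma), which did not pass. Neither did the pseudogene PKD1P4 or the folate transporter SLC19A1 (both adjusted p = 0.0675 by limma). With the sequencing batch as a term these 3 passed (adjusted p = 0.0033 for FAT1 and PKD1P4 and 0.00488 for SLC19A1 by limma).

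CEBPE, a transcription factor of myeloid cells, stood apart from the other genes of the SCAF4 side. It held 12, 15 and 9 clusters in SCAF4 IP and none in SCAF8 IP (adjusted p = 0.00472 by limma), but also 11, 4 and 2 in the inputs of the SCAF4 line and none in those of the SCAF8 line. Only 3 of its 36 IP clusters were in coding exons and 9 in its intron, and most others lay within 2 kb beside the gene (chr14:23117306-23119255, minus strand). The other 9 of the 10 genes with the lowest p had at most 2 input clusters each. Over the 10 genes, 55.9% of 478 IP clusters were in coding exons.

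The 10 genes of the SCAF8 side were of another kind, with more introns, more input clusters and fewer coding exons. XKR6, a membrane protein related to the XK blood group protein, held 7, 14 and 9 clusters in SCAF4 IP and 39, 27 and 64 in SCAF8 IP. These were 2.97 ± 0.621 and 15.2 ± 0.398 per 10000 clusters (difference −2.32 ± 0.29, log2, SE, adjusted p = 0.00472 by limma). Of its 160 IP clusters, 146 were intronic, and the inputs held 13, 1 and 3 clusters in the SCAF4 line and 23, 25 and 21 in the SCAF8 line. Control IP, with no tagged protein, held 12, 1 and 3 XKR6 clusters in lists of only 9638, 2314 and 1621 clusters. TBC1D22A, a protein with a Rab GTPase-activating domain, held 0, 3 and 2 clusters against 6, 6 and 13 (difference −2.63 ± 0.47, log2, SE, adjusted p = 0.0256 by limma), with 26 of 30 in introns. NID1, the basement membrane protein nidogen, held 1, 1 and 2 against 6, 6 and 12 (difference −2.48 ± 0.47, log2, SE, adjusted p = 0.041 by limma). Unlike the others it lay mostly in coding exons (21 of 28 clusters).

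The long noncoding RNA PARD6G-AS1 held 0, 3 and 2 clusters against 8, 8 and 12 (adjusted p = 0.0197 by limma), and the unnamed noncoding gene ENSG00000276672 held 0, 2 and 2 against 6, 6 and 8 (adjusted p = 0.0411 by limma). The zinc finger gene ZNF544 held 5, 14 and 7 against 21, 14 and 25 (difference −1.54 ± 0.30, log2, SE, adjusted p = 0.0437 by limma), with 4, 2 and 2 against 15, 10 and 11 in the inputs. ENSG00000268750, a coding gene that overlaps ZNF587, was called as well (adjusted p = 0.0278 by limma), and reads of the overlap cannot be assigned to either. ZNF587, ZNF8 and EPN1, which encodes the endocytic adaptor epsin, did not pass (adjusted p = 0.061, 0.063 and 0.0644 by limma), but passed with the sequencing batch as a term (0.00213 for ZNF587 and EPN1 and 0.00325 for ZNF8). Over the 10 genes, the inputs held 43 clusters in the SCAF4 line and 207 in the SCAF8 line, and 17.8% of 623 IP clusters were in coding exons. XKR6 alone held 86 of these input clusters and 146 of the 336 intronic IP clusters. TBC1D22A, NID1 and PARD6G-AS1 held only 5, 4 and 5 input clusters. The short control IP lists held 8, 1 and 1 clusters of ZNF544, 5, 1 and 2 of ZNF587 and 4, 0 and 3 of EPN1. They held fewer of PARD6G-AS1 (2, 0 and 0), TBC1D22A and NID1 (1, 0 and 0 each). EPN1 had 62 of its 120 IP clusters in the 3′ UTR.

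**Figure D3:**
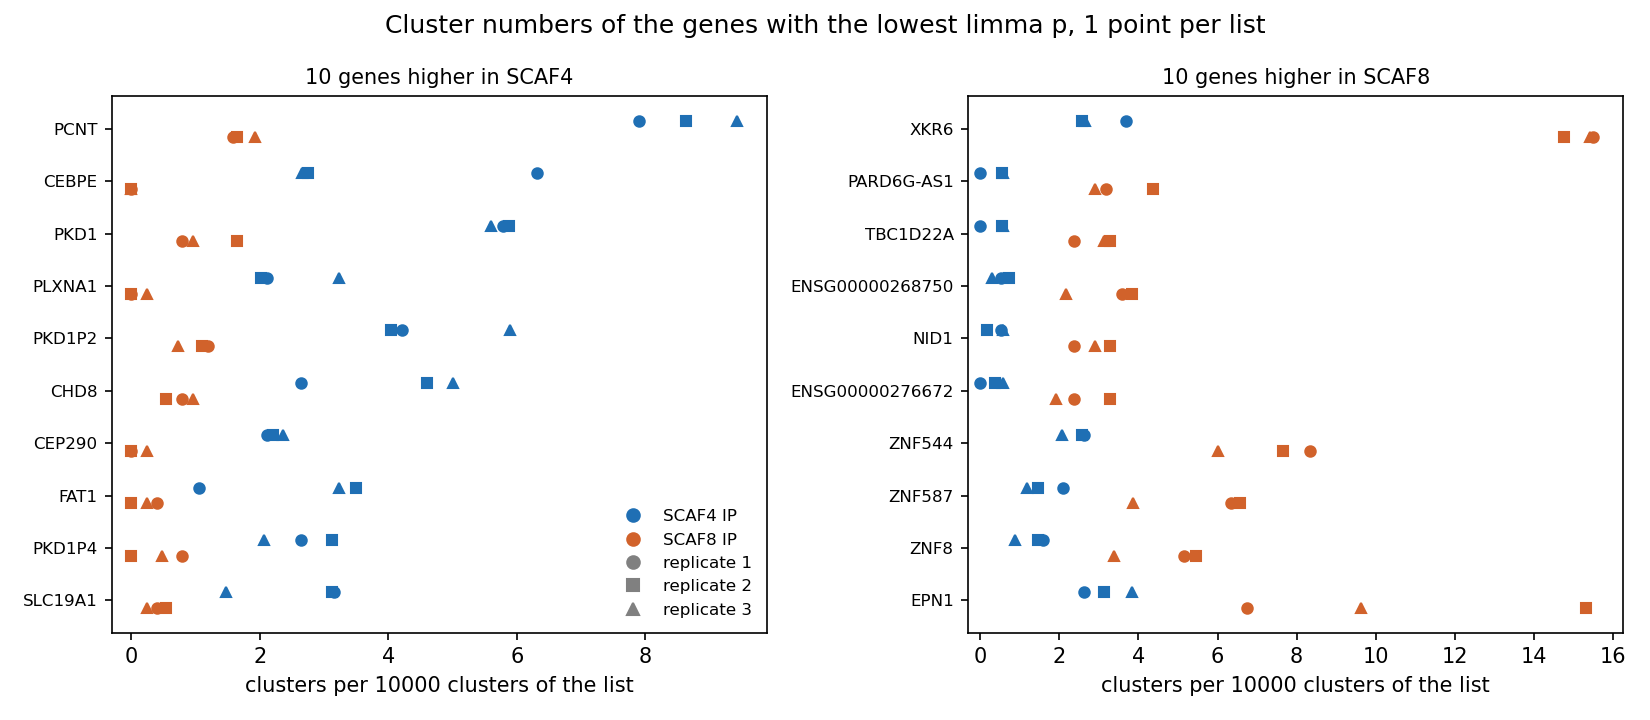
Clusters of a gene per 10000 clusters of the list (horizontal axes) for the 10 genes with the lowest limma p on each side among those whose lists did not overlap, with 1 point per IP list and the replicate given by the marker. PCNT sits at 7.90 to 9.42 in SCAF4 IP and at 1.59 to 1.93 in SCAF8 IP, and XKR6 at 2.57 to 3.69 and 14.8 to 15.5.

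Genes that differed between the IPs tended to differ between the inputs. Over the 992 genes with at least 12 input clusters, the IP difference and the input difference had a Pearson r of 0.58 and a Spearman rho of 0.45 across genes, which share lists and are not independent. In 1 fit that compared the IP difference with the input difference, limma called 0 genes in either direction (65 and 126 at an unadjusted p under 0.05), with a median of −0.15 over all genes. In it the difference of PCNT was 1.68, that of PKD1 1.69, of PLXNA1 2.73 and of CEP290 2.09, while that of CEBPE was 0.46. On the SCAF8 side it was −0.34 for XKR6 and −0.04 for ZNF544, −1.17 for NID1 and −1.86 for TBC1D22A. Their standard errors were 0.51 to 0.78, and none passed. PKD1 and PLXNA1 had no input cluster. The input difference of 0.52 within their values came from the pseudocount and the list lengths alone. The end of chromosome 19 held 2 of the 7 genes called higher in SCAF8 IP and 27 of the 315 with SCAF8 lists above all SCAF4 lists. From 50 Mb to the end of chromosome 19, which holds many zinc finger genes, 45 of 48 genes tested were lower in SCAF4 IP, with a median difference of −0.96 (log2). This stretch held 52.1 to 62.7 clusters per 10000 in SCAF4 IP and 119 to 150 in SCAF8 IP, with inputs at 64.0 to 70.4 and 128 to 174. Between 20 and 25 Mb of chromosome 14, which holds CEBPE and CHD8, the order was the reverse. There the median difference of 26 genes was 0.69, with 50.5 to 57.1 clusters per 10000 in SCAF4 IP, 28.0 to 30.6 in SCAF8 IP, and inputs at 52.8 to 63.2 and 23.0 to 34.4. Both stretches were chosen after their values were seen. Between the inputs the median differences of the genes in these stretches were −0.53 and 0.93, beside 0.28 over all genes tested. The shift was not confined to them. Chromosome 19 before 50 Mb had a median of −0.29 over 273 genes (0.09 between the inputs). Chromosome 14 beyond 25 Mb had one of 0.40 over 89 genes (0.52 between the inputs). The part of RNA abundance or gene copies in each line was not tested.

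**Figure D4:**
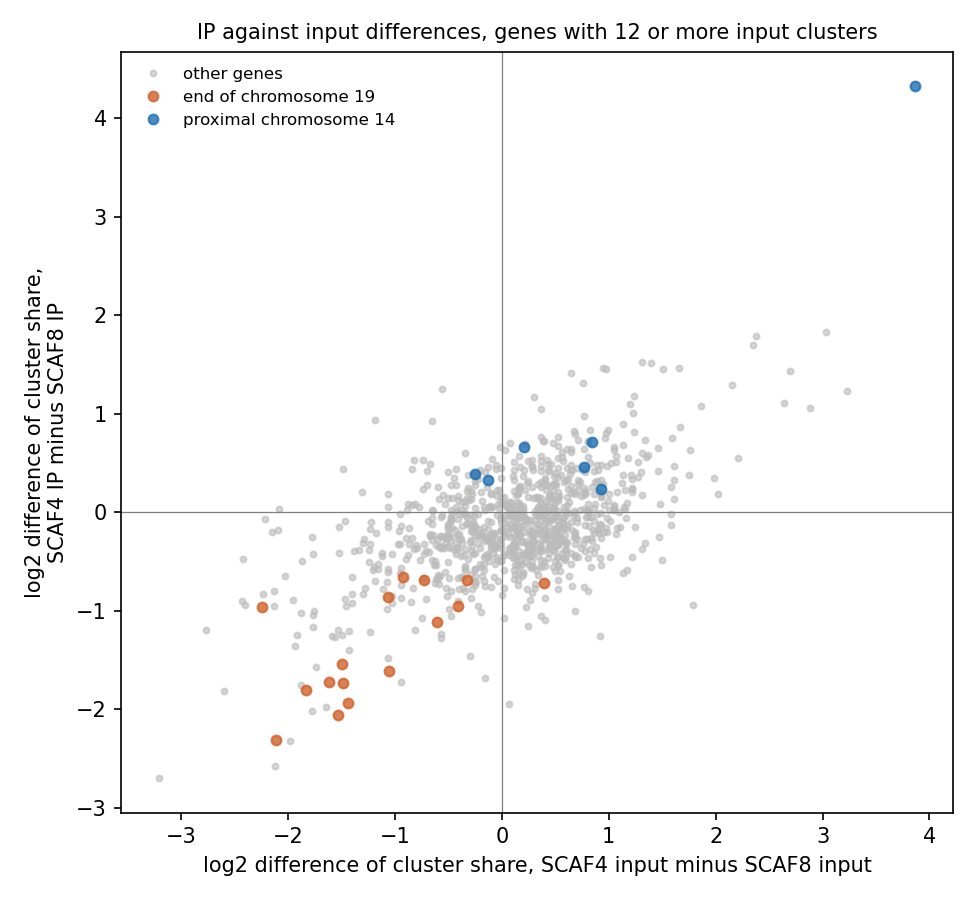
Log2 difference of the cluster share of a gene between SCAF4 IP and SCAF8 IP (vertical axis) against that between the inputs of the same lines (horizontal axis), with 1 point for each of 992 genes. The 16 genes at the end of chromosome 19 lie below 0 on the vertical axis, all but 1 of them also left of 0, and CEBPE of proximal chromosome 14 lies at the upper right.

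No gene of the groups related to RNA polymerase II and 3′ end formation passed the test, beside 0.171% of all genes in each direction. Of 14 tested genes of CPSF, CSTF and the cleavage factors, which cut nascent RNA at polyA sites, none was called, 1 had SCAF4 lists above the SCAF8 lists and 0 the reverse, against 11% and 7.68% of all genes. Their median difference was 0.09 (log2), beside 0.07 over all genes tested. CPSF6, the member with the most clusters, held 11, 14 and 14 clusters in SCAF4 IP and 13, 7 and 14 in SCAF8 IP. Of 17 genes of termination and the nuclear exosome, 2 had SCAF4 and 2 SCAF8 lists higher, with a median of 0.12. Of 6 RNA polymerase II subunits 0 and 1 had lists that did not overlap, with a median of 0.10, and POLR2A held 4.67 ± 0.961 and 3.39 ± 0.583 clusters per 10000, with lists that overlapped. Of 20 elongation factors the median was 0.27, and 0 and 1 had lists that did not overlap. Of 4 Integrator genes, 1 lay on each side, with a median of 0.46.

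Over all genes, 11% had SCAF4 lists above all SCAF8 lists and 7.68% the reverse. The first share was larger in the dynein, remodeller and methyltransferase groups, with 4 such genes in each. In the ubiquitin ligases it was near that of all genes. Genes of dynein, dynactin and giant cytolinkers, which move or anchor cargo in the cytoplasm, had a median of 0.45 over 14 genes. Of these, 4 (28.6%) had SCAF4 lists above all SCAF8 lists and 0 the reverse. Their median between the inputs was 0.52, the value that the pseudocount and the list lengths alone give a gene without input clusters. DCTN1, the large dynactin subunit, held 5, 15 and 11 clusters against 1, 2 and 5 (difference 1.56 ± 0.40, log2, SE, adjusted p = 0.104 by limma), and 38 of its 39 clusters were in coding exons. Of 18 CHD and SWI/SNF remodellers, 1 was called (CHD8), beside 0.171% of all genes called on the SCAF4 side. Lists did not overlap in 4 (22.2%) and 1 (5.56%) of them, with a median of 0.44. Of 10 MLL and SET1 methyltransferases, which modify histone H3, 4 (40%) and 0 did not overlap, with a median of 0.37. KMT2B held 6.35 ± 1.77 and 3.22 ± 1.04 clusters per 10000 and KMT2D 8.57 ± 1.00 and 5.10 ± 1.38, and neither passed the test (adjusted p = 0.229 and 0.3 by limma). Of 15 giant ubiquitin ligases, 2 (13.3%) and 0 did not overlap, with a median of 0.43. The lists overlapped for UBR4, at 16.9 ± 5.43 and 13.0 ± 5.75 per 10000. Of 11 PI3K-related kinases and TOR genes 1 (9.09%) lay on each side, with a median of 0.35. TRRAP, a scaffold of histone acetyltransferases, held 11.3 ± 1.74 and 6.34 ± 0.373 per 10000 (adjusted p = 0.221 by limma). RPTOR, a subunit of TOR complex 1, was on the other side with 4.64 ± 1.35 and 9.57 ± 1.39 per 10000 (difference −1.05 ± 0.30, log2, SE, adjusted p = 0.139 by limma). Relative to the inputs the medians of these groups were 0.07 for dynein, 0.14 for the remodellers, −0.16 for the methyltransferases, 0.44 for the ubiquitin ligases and 0.11 for the kinases. These medians include genes with few or no input clusters, such as DCTN1 with 1.

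The hnRNP, SR and ribosomal protein genes had medians below that of all genes when all lists were used. Of 26 hnRNP genes, whose proteins package nascent RNA, 1 (3.85%) had SCAF4 lists higher and 0 SCAF8 lists, beside 11% and 7.68% of all genes. Their median was −0.37, beside 0.38 between the inputs. The whole group held 131, 95.6 and 116 clusters per 10000 in SCAF4 IP and 144, 182 and 105 in SCAF8 IP, which overlapped. It held 225 to 334 in the inputs of the SCAF4 line and 214 to 265 in those of the SCAF8 line. Of 15 SR splicing factors the median was −0.23, with 0 and 1 (6.67%) not overlapping, and SON held 7.39 ± 1.37 and 11.8 ± 3.05 clusters per 10000. Of 71 ribosomal protein genes, 3 (4.23%) and 5 (7.04%) did not overlap, with a median of −0.12. Relative to the inputs the medians were −0.66 for hnRNP, −0.49 for SR and −0.53 for ribosomal protein genes. In these 3 groups the shortest SCAF8 list had the highest share and the longest SCAF4 list the lowest. With equal list sizes the medians were −0.30 for hnRNP, −0.04 for SR and 0.06 for ribosomal protein genes, and with log2 list size as a covariate −0.22, −0.08 and 0.02. Without replicate 2 all 3 lay at 0 or above, at 0.00, 0.17 and 0.23. Of 11 abundant long noncoding RNAs 0 and 1 (9.09%) did not overlap, with a median of −0.18. That 1 was JPX, an X-linked noncoding RNA, with 7, 9 and 5 clusters in SCAF4 IP and 35, 11 and 22 in SCAF8 IP (difference −1.81 ± 0.43, log2, SE, adjusted p = 0.0895 by limma). The inputs held 12, 0 and 0 JPX clusters in the SCAF4 line and 36, 7 and 7 in the SCAF8 line. Relative to the inputs the difference of JPX was 0.79 ± 1.06 (log2, SE), with the other sign. NEAT1 held 12.9 ± 7.22 and 12.6 ± 4.44 per 10000. Heat shock and chaperone genes had a median of 0.01 over 20 genes, with none on either side. The 4 replication-dependent histone genes tested had one of 0.47, with 1 (25%) and 0.

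Of 115 zinc finger (ZNF) genes tested, 1 was called, ZNF544, and 11 (9.57%) and 19 (16.5%) had SCAF4 or SCAF8 lists higher, beside 11% and 7.68% of all genes, with a median of −0.12. The study's list of genes with readthrough after SCAF4 loss, drawn from another assay, had 406 tested genes, with 40 (9.85%) and 41 (10.1%) not overlapping and a median of 0.06. Its list of expressed genes with intronic polyA sites had 249 tested genes, with 33 (13.3%) and 26 (10.4%) not overlapping and a median of 0.05. Each held 1 gene called higher in SCAF8 IP and 0 in SCAF4 IP, beside 0.171% of all genes called in each direction. Both medians lay near the 0.07 of all genes. Of 13 genes named by the study for early polyadenylation, 5 were tested, and 1 and 0 had lists that did not overlap. HP1BP3, the member with the most clusters, held 9, 19 and 9 clusters in SCAF4 IP and 11, 7 and 11 in SCAF8 IP. Spliceosomal snRNAs and small nucleolar RNAs had no gene with 12 clusters.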

How the data were processed

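PAR-CLIP cluster lists of 3 replicates each were used for SCAF4 IP, SCAF8 IP, the inputs of both lines, and the control IP and inputs of the parental line. Per the methods, the authors trimmed reads with Trim Galore and cutadapt (versions not given in the sources used here), aligned them to GRCh38 (Bowtie2 2.2.9 in the submitters' processing notes, which also name bcl2fastq 1.8), removed duplicates with Picard, combined the soluble and chromatin reads of each replicate and called clusters with PARalyzer. They deposited positions, strand and an unnamed score between 0.501 and 1 per cluster, which was used here only as a rank. Read counts are not in these lists, so depth is unknown. The RNA was cut with a limited amount of RNase I, which with the trimming sets where reads can end and so the width of clusters.

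Clusters were assigned by their midpoint and strand to GENCODE 44 (for coding genes, the coding isoform whose exons summed to most nt). Genes with at least 12 clusters in the 6 lists were tested with limma 3.58.1 (R 4.3.3, lmFit and eBayes with trend) on log2((clusters + 0.5) / clusters of the list), and 4-mers on their log2 share, each with Benjamini-Hochberg adjustment at 0.05. Class shares and position measures were compared by exact permutation tests, and the rest used Python 3.11.15. The fit was tested on simulated data. The text names the 10 genes per direction with the lowest limma p among those whose lists did not overlap, SCAF4 and SCAF8, the members of each gene list with the lowest p or the most clusters, the 6 highest-ranked regions per direction and the 5 4-mers with the lowest p per direction. Members, lists and rules were chosen with earlier results of these data known. Alternatives changed the scaling, list size, filter, pseudocount, window, gene model, background clusters, pairing and replicates. Later additions, chosen after seeing the data, were coding exon or intronic clusters alone, differences relative to input, replicate 1 alone, and the sequencing batch as a term. One gene and 1 region that the rules name are not reported here.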

Additional observations from a re-analysis of the deposited data

Results flagged for a closer look

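The share of clusters that lay upstream and antisense within 2 kb of a gene start, where divergent promoter transcripts begin, moved in opposite directions against the inputs in the 2 lines. It was lower in every SCAF4 IP list than in the input of the same replicate, by −0.0909, −0.186 and −0.130 percentage points, and higher in every SCAF8 IP list, by 0.0146, 0.0392 and 0.0757 points. The difference between the mean changes was −0.179 points. The difference was not tested. Input lists of the 2 lines held 4793 to 11715 clusters, so shares of this size rest on few clusters. The IP lists of the proteins overlapped (0.194% and 0.272%, difference −0.0785 points, p = 0.2 by a two-sided exact permutation test), and the inputs differed the other way (0.329% and 0.229%). The mean of control IP was below that of its own inputs (0.236% and 0.391%), but in replicate 1 control IP was above its input (0.239% and 0.200%).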

How the results depend on the processing

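The exact permutation test of 3 lists against 3 has a smallest p of 0.1, and depth is unknown. Coding exon and intergenic shares, splice site spanning and median gene position kept their direction under all alternatives run.

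Against the 7 and 7 genes called, limma called 79 and 74 (SCAF4 side first) with a minimum of 1 cluster, 33 and 37 with 6, 4 and 8 with 24, 20 and 21 with a pseudocount of 1, 7 and 9 with median centring, 5 and 4 with covered nt, 17 and 15 without background clusters, 2 and 1 with log2 list size as a covariate, 0 and 1 with equal list sizes (155 and 122 at an unadjusted p under 0.05), 5 and 1 from coding exon clusters, 6 and 13 from intronic clusters and 0 and 0 relative to input (65 and 126 unadjusted). Against 24 and 15 4-mers, it called 15 and 7 without background clusters, 3 and 4 with the cluster itself as the window, 0 and 5 with equal list sizes (37 and 33 unadjusted), 18 and 2 in introns and 0 and 0 in coding exons (23 and 44 unadjusted). With a replicate block it called 116 and 88 genes and 26 and 29 4-mers. The deviations of same-numbered lists correlated at 0.352, 0.028 and 0.165, and lists 2 of SCAF4 and 3 of SCAF8 at 0.284, so the numbers were not taken to pair the lists. Lists 1 correlated at −0.140 to −0.307 with lists 2 and 3 of the other protein, and with the sequencing batch (replicate 1 against 2 and 3) as a term limma called 127 and 103 genes and 52 and 46 4-mers. Of regions, 439 were found on the SCAF4 side with equal list sizes and 193 on the SCAF8 side without background clusters. The cause of these changes was not tested.

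Other values crossed 0. Other noncoding genes reached −0.142 points with equal list sizes, −0.0269 by covered nt and −0.476 with canonical isoforms. With equal list sizes the exon to intron log2 ratio differed by −0.00125 at 5′ and −0.0130 at 3′ splice sites, and the first-intron share by −0.416 points. CPSF6 was 0.195 with equal list sizes, 0.165 without background clusters and 0.116 with list size as covariate, and NEAT1 0.607, 0.0156 and 0.200.

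Median log2 differences of gene groups moved by more than their spread between lists. With equal list sizes they were −0.371 for RNA polymerase II subunits, 0.157 for elongation, 0.774 for PI3K-related kinases and 0.652 for dynein. By covered nt elongation was 0.391, Integrator 0.711 and dynein 0.645. With at least 6 clusters early polyadenylation genes were at 0.277, elongation 0.478, Integrator 0.689 and histones −0.292, and with at least 1 early polyadenylation was 0.728, polymerase subunits −0.130, elongation 0.478 and histones −0.292. With at least 24 the polymerase subunits were at −0.155, dynein 0.647 and ZNF genes −0.312. Without background clusters the polymerase subunits were at −0.142, elongation 0.501 and ZNF genes −0.247. Relative to input the polymerase subunits were at −0.415, elongation −0.0652, Integrator −0.447, ribosomal proteins −0.529, histones −0.491, PI3K-related kinases 0.112, dynein 0.0681, CHD and SWI/SNF 0.136, MLL −0.160 and readthrough genes −0.0785.

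Leaving out 1 list or replicate number gave 0 to 103 genes called on the SCAF4 side and 0 to 75 on the other, 0 to 38 and 0 to 37 4-mers, and 1139 to 7031 and 401 to 3143 regions. These regions held all remaining lists of 1 protein, a looser rule with 2 lists than with 3. In points, the 5′ UTR difference ranged from −0.0173 to 0.561, introns −4.18 to 1.57, other noncoding genes −0.340 to 0.336, small noncoding RNA −0.168 to 0.0164 and the first 2 kb −0.0849 to 1.55. The exon to intron log2 ratio ranged from −0.149 to 0.160 at 5′ and −0.200 to 0.125 at 3′ splice sites, and cluster length from −3 to 4 nt. Log2 differences ranged from −0.333 to 0.258 for CPSF6, −0.768 to 0.00575 for HNRNPU, −0.414 to 0.0455 for RPS19, −0.475 to 0.317 for NEAT1 and −0.0739 to 0.416 for PRKDC. Medians ranged from −0.00223 to 0.281 for CPSF, CSTF and cleavage factors, −0.0202 to 0.360 for termination and exosome, 0.162 to 0.383 for elongation, 0.170 to 0.770 for Integrator, −0.420 to 0.171 for SR, −0.615 to 0.00409 for hnRNP, 0.119 to 1.12 for histones, −0.412 to 0.266 for long noncoding RNAs and 0.364 to 0.776 for dynein.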
